A study of Mus musculus with 6 samples.

Results

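The proteasome is the protease that degrades ubiquitin-tagged proteins in the cytosol and nucleus, and the peptides it releases supply MHC class I molecules. Its barrel-shaped 20S core is built from stacked rings of alpha subunits, which gate the entry, and beta subunits, 3 of which (encoded by Psmb5, Psmb6 and Psmb7) carry the catalytic threonines. The 19S cap binds the core and feeds it: a ring of ATPases (Psmc genes) unfolds the substrate, other base subunits receive ubiquitin chains, and the lid removes them. When proteasome activity falls, the transcription factor NFE2L1 is known to raise transcription of the subunit genes together, and NF-Y, which binds CCAAT boxes, is a known activator of several of them.

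The genes described here are the 31 constitutive subunit genes of the core (Psma1 to Psma7, Psmb1 to Psmb7) and the cap (Psmc1 to Psmc6 and 11 Psmd genes), taken by gene identifier from the 39179 genes in the deposited tables. Immunoproteasome subunits were not members. Libraries of mRNA came from B16-F10, a mouse melanoma line grown in culture, either Sirpa-wild type (WT; 3 libraries, called Sirpa-WT) or Sirpa-knockout (KO; 3 libraries, called Sirpa-KO). Sirpa encodes SIRPα, the receptor for CD47, and the comparison asks which genes the tumour cells express differently without it. The labels name no treatment, do not describe the edit, and do not say whether a line is 1 clone or whether a group's libraries came from separate cultures. The p-values therefore cover the spread among these libraries alone, which may be technical. One label field gives another name for the cell line (Pmel) and the tissue as tumour.

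The libraries differed in depth and profile. Total counts were 338824 to 411695 in 5 libraries and 29877270 in Sirpa-KO replicate 1 (hereafter the deep library), 82.6 times the mean of the others. One count therefore equalled 2.43 to 2.95 CPM (the count as a share of the library's total count, scaled to the same sum in each library) in a shallow library and 0.0335 CPM in the deep one. Annotated pseudogenes took 27.0% to 30.2% of counts in the shallow libraries and 0.216% in the deep library. Results on the subunit genes are therefore given from the 5 shallow libraries first, and by group and for the genes described also with all 6. Counts of the targeted gene, Sirpa, were 12, 7 and 3 for Sirpa-WT against 1584 (deep library), 6 and 6 for Sirpa-KO. They do not check the genotype labels. All 8 melanocyte markers were detected, with a summed level of 16047 to 19165 CPM in Sirpa-WT, 12712 to 13080 in Sirpa-KO replicates 2 and 3, and 15997 in the deep library. Of 6 leukocyte markers, Ptprc, Cd3e, Adgre1 and Cd79a were at 0 in each shallow library, and the summed level of the 6 was at most 8.16 CPM in any library.

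All 31 subunit genes were detected in every library and passed the count filter in both fits. Counts per gene ran from 8 to 223 in the shallow libraries and from 2725 to 17521 in the deep one. Their summed level was 3882, 4220 and 4384 CPM for Sirpa-WT replicates 1 to 3, 5009 and 4844 CPM in Sirpa-KO replicates 2 and 3, and 8631 CPM in the deep library. The 3 Sirpa-WT libraries lay below every Sirpa-KO library in this sum. The sum follows library totals and not the TMM scaling (trimmed mean of M values, which centres the bulk of genes) used in the tests below. TMM factors with the 5 shallow libraries were 0.962, 0.968 and 0.958 for Sirpa-WT and 1.05 and 1.06 for Sirpa-KO replicates 2 and 3. Dividing by them brings the sums closer, so the separation need not hold on the scale of the tests. In these bulk samples a change in the number of cells of a kind and in RNA per cell cannot be told apart. Among replicates, the subunit genes varied about as much as counting error alone gives, with a chi-square per degree of freedom of 1.10 over the 3 Sirpa-WT libraries and 0.697 over the 2 shallow Sirpa-KO libraries.

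**Figure D1:**
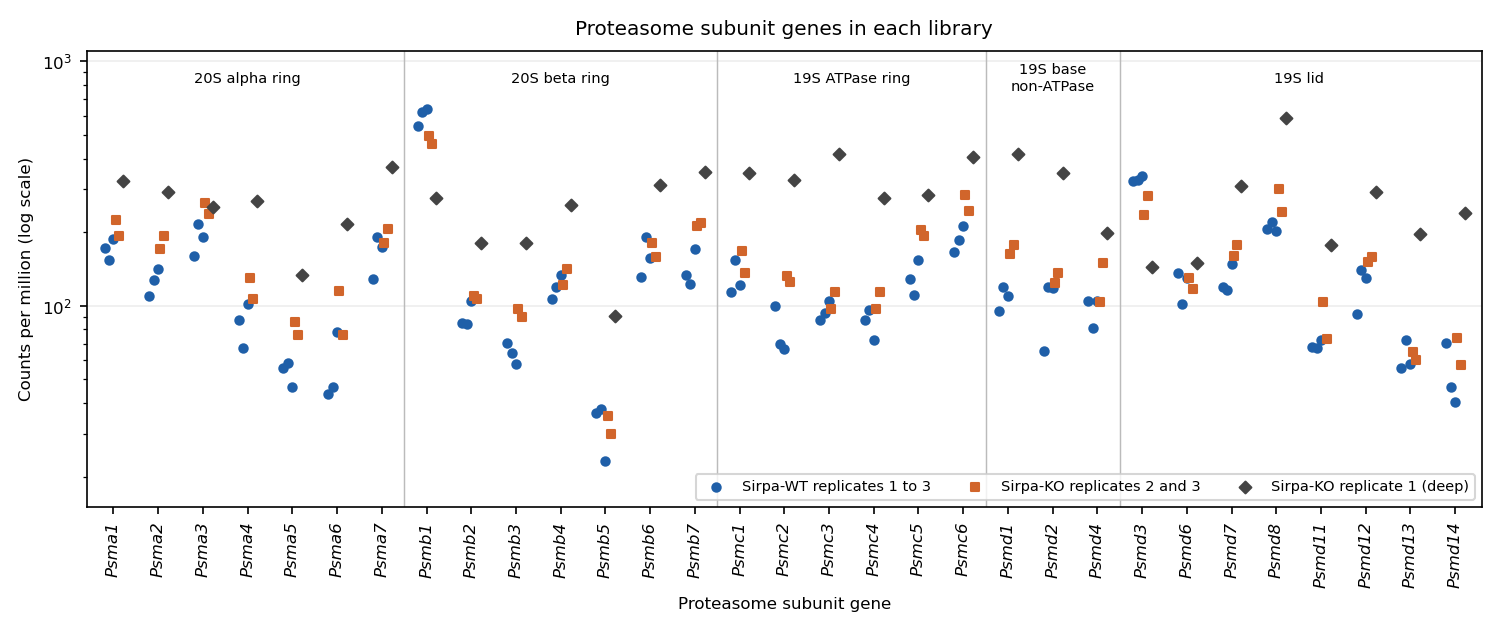
Level in CPM (log axis) of each of the 31 subunit genes, grouped by subcomplex, with 1 point per library: circles Sirpa-WT, squares Sirpa-KO replicates 2 and 3, diamonds the deep library Sirpa-KO replicate 1. The deep library stands above every shallow library for 28 genes and below every one for Psmb1 and Psmd3, where the Sirpa-KO squares also lie below the Sirpa-WT circles.

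Levels were compared between genes per length, as TPM (counts per base of the deposited exon length, scaled to the same total in every library). In Sirpa-WT, Psmb1, a non-catalytic beta-ring subunit, stood first at 650, 727 and 717 TPM. The next were Psmd8, a lid subunit, at 165 ± 10.6 TPM (SD, n = 3), Psma2, of the alpha ring, at 161 ± 15.9, Psmc6, an ATPase, at 145 ± 13.2 and the catalytic Psmb7 at 141 ± 21.2. The gap between Psmb1 and the others exceeded the spread of the libraries, whereas Psmd8, Psma2, Psmc6 and Psmb7 overlapped with their neighbours in the order.

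At the low end of the order in Sirpa-WT were the lid scaffold gene Psmd11 (13.2, 12.7 and 13.2 TPM), the ATPase gene Psmc2 (24.6, 16.9 and 15.4 TPM) and the lid gene Psmd13 (22.1 ± 3.39; SD, n = 3). Psmd11 lay below the other 2 in each library, and Psmc2 and Psmd13 overlapped. The median over the 31 genes was 60.5 ± 7.30 TPM over Sirpa-WT (SD, n = 3), 75.5 ± 1.28 over Sirpa-KO replicates 2 and 3 (SD, n = 2) and 306 in the deep library. The deposited exon length counts every annotated isoform, so genes with long rare exons, such as Psmd11 with 6383 bases against 1036 for Psmb1, are placed low by this scale.

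The 3 catalytic subunit genes were not at equal levels in Sirpa-WT. Psmb7, which encodes the trypsin-like beta2 subunit, lay at 137, 122 and 164 TPM. Psmb6, for the caspase-like beta1 subunit, lay at 87.1, 125 and 97.4 TPM, and Psmb5, for the chymotrypsin-like beta5 subunit and main target of proteasome inhibitor drugs, at 52.0, 52.8 and 31.02 TPM. Psmb5 was below Psmb6 and Psmb7 in each of the 3 libraries, while Psmb6 and Psmb7 overlapped. In the deep library Psmb7, Psmb6 and Psmb5 stood at 735, 423 and 266 TPM. Of the 25-base words in Psmb5 transcripts, 72.0% also occur in annotated pseudogenes, against 2.86% for Psmb7, so the counts of Psmb5 are uncertain.

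**Figure D2:**
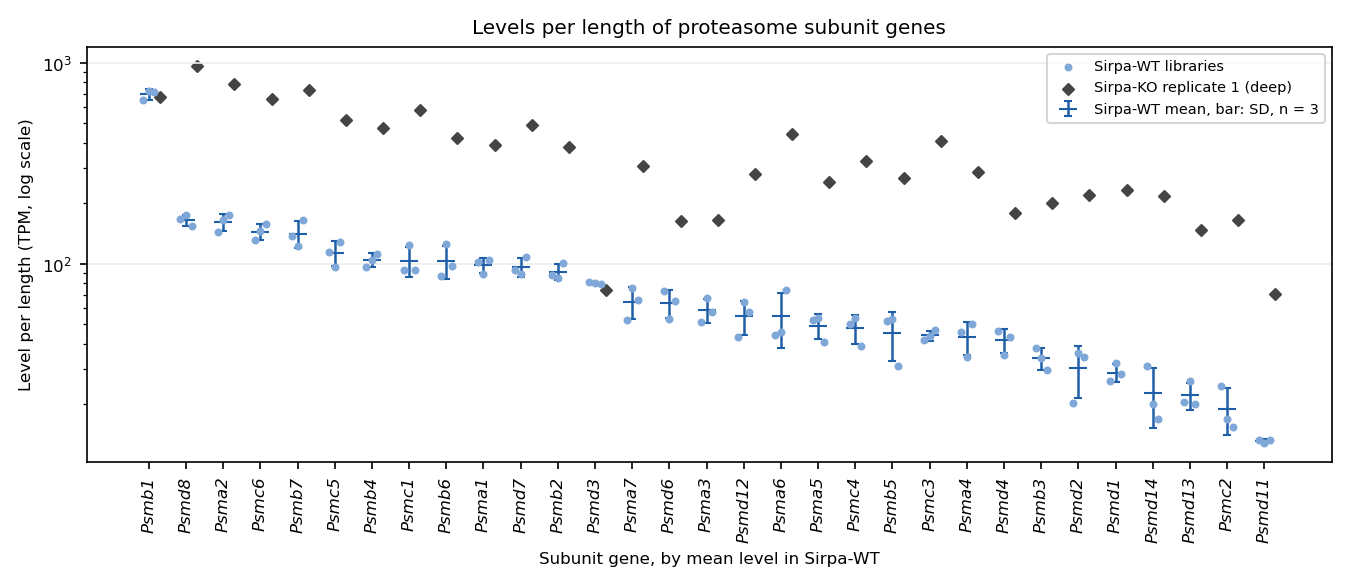
Level per length (TPM, log axis) of the 31 subunit genes ordered by their mean in Sirpa-WT (bars, SD over 3 libraries; light points, the libraries; diamonds, the deep library). Psmb1 stands apart at the top in Sirpa-WT, and the diamonds of Psmb1 and Psmd3 are close to their Sirpa-WT values while those of the other genes lie above. The total of the scale includes pseudogenes, whose share differed in the deep library, so these heights are not a difference in level.

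The order of the genes in the deep library was only partly the same. Across the 31 genes, Pearson's r of log2 TPM was 0.936 to 0.975 between pairs of shallow libraries and 0.718 to 0.825 between the deep library and each shallow one. Genes share the length and library in these values, so they are a description. Psmb1 took rank 4 in the deep library in place of rank 1 in Sirpa-WT, and the lid gene Psmd3 took rank 30 in place of 13. Psmd8 and Psma2 were first and second there, at 967 and 785 TPM. Without Psmb1 and Psmd3, a pair chosen after their values were seen, r with the deep library was 0.860 to 0.890.

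The upstream sequence of some subunit genes holds letters that the factors named above bind, and these stretches are shown so that the gene values can be read beside them. RefSeq promoters on GRCm38.p6 (250 bases before to 50 after the start) were given for 25 of the 31 genes; Psmb1, Psmb2, Psmb7, Psmc3, Psmd3 and Psmd7 are not among them. The core of the antioxidant response element, TGACNNNGC on either strand, which NFE2L1 binds with its small MAF partners, occurred in 4 of the 25 genes (16%) and in 13.99% of all 27025 genes in the table. The CCAAT box, CCAAT on either strand, occurred in 10 of the 25 (40%) and in 41.1% of all genes. Both shares were near those of all genes. The first 4 lines below are the genes with the first match, and the last pair are the alpha-ring and ATPase genes with the highest log2 fold change, both with CCAAT. Psmd1, the highest of the other base subunits, has neither match and is not shown. Capitals mark the matches, and each line reads 5′ to 3′ on the gene's strand.
Psmb5, chr14:54617996-54618095, minus strand, bases 100 to 1 before the start: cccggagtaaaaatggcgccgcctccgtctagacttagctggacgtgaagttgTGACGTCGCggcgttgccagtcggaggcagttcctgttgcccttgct
Psmb6, chr11:70525257-70525356, plus strand, bases 100 to 1 before the start: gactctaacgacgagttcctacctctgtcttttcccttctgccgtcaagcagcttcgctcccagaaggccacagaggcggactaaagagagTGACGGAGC
Psmc6, chr14:45329574-45329673, plus strand, bases 250 to 151 before the start: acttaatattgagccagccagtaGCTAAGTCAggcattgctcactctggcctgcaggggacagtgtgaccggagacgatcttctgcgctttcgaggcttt
Psmd12, chr11:107479278-107479377, plus strand, bases 250 to 151 before the start: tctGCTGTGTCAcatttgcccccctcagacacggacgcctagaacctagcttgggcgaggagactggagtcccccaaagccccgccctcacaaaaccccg
Psma6, chr12:55384072-55384221, plus strand, bases 150 to 1 before the start: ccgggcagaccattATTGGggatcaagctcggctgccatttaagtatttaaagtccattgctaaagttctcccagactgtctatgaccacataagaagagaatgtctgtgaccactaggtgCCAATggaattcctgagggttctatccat
Psmc2, chr5:21785175-21785274, plus strand, bases 100 to 1 before the start: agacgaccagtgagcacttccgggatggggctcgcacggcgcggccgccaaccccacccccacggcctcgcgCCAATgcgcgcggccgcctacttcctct
Psma6 and Psmc2 each have 2 annotated starts in that table, and the printed stretch lies upstream of 1 of them. The promoter at the other start of each holds neither match. A match is a description of letters and not of binding.

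Between genotypes, 1 of the 31 subunit genes changed in the shallow libraries: Psmb1 fell, and none rose. Of all 5510 genes tested, edgeR's quasi-likelihood test with Benjamini-Hochberg adjustment at 0.05 called 5.84%, with 1.32% higher and 4.52% lower. Psmb1 (ENSMUSG00000014769, GRCm38 chromosome 17, 15475721 to 15498276, minus strand) lay at 542, 620 and 637 CPM for Sirpa-WT replicates 1 to 3 against 493 and 460 CPM for Sirpa-KO replicates 2 and 3. Both Sirpa-KO libraries were below every Sirpa-WT library, and the deep library was lower still, at 275 CPM. Its log2 fold change stood at -0.45 ± 0.13 (SE; edgeR adjusted p = 0.0161). The call was made with limma voom (-0.44, adjusted p = 0.0241), which called 5.39% of all genes (1.31% higher, 4.08% lower). It was not made with DESeq2 (-0.45, adjusted p = 0.0562), which called 2.4% of all genes (0.29% higher, 2.11% lower). That share counts as not called the genes, such as Psma6, Psmc2 and Usp14, to which DESeq2 gave no adjusted p-value. By edgeR the Psmb1 call was also not made with scaling by library size alone (-0.31, adjusted p = 0.119). The same held with each library's trend along the deep-to-shallow ratio of the genes removed (-0.21, adjusted p = 0.517). It was also not made without Sirpa-WT replicate 2 (-0.43, adjusted p = 0.0870), Sirpa-KO replicate 2 (-0.52, adjusted p = 0.0947) or Sirpa-KO replicate 3 (-0.41, adjusted p = 0.248), each by edgeR.

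With all 6 libraries 0 of the 31 subunit genes, and 0% of all 5397 genes tested, passed edgeR's test. At an unadjusted p under 0.05, 2 subunit genes passed (Psmc2 and Psmd1, both higher), where 6.37% of all genes did (4.71% higher, 1.67% lower). DESeq2 called 0 subunit genes and 0.0185% of all genes (0.0185% higher, 0% lower). Limma voom also called 0 subunit genes, but 23.8% of all genes (0.315% higher, 23.5% lower). The log2 fold change was above 0 for 28 of the 31 genes and for 52.7% of all genes, with medians of 0.62 and 0.11. All 3 Sirpa-KO libraries stood above every Sirpa-WT library in CPM for 18 subunit genes and below for 2, against 20.4% and 10.2% of all genes, and under TMM scaling for 8 and 2, against 13.7% and 16.8%. The biological coefficient of variation was 75.8% with 6 libraries and 7.25% with the 5 shallow ones. Psmb1 stood at -0.70 ± 0.38 (SE, edgeR adjusted p = 0.574) over 6 libraries.

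The other 30 genes did not pass in the shallow libraries. At an unadjusted p under 0.05, 9 of the 31 passed, 7 higher and 2 lower, where 20.8% of all genes did (8.95% higher, 11.9% lower). Of the 31 log2 fold changes, 25 were above 0 in the shallow libraries, as were 51.2% of those of all genes tested, and the median was 0.25 against 0.013 over all genes. In CPM, both shallow Sirpa-KO libraries stood above every Sirpa-WT library for 18 genes and below for 2 (Psmb1 and Psmd3), where the share of all genes was 26.3% and 11.8%. Under TMM scaling these counts were 8 and 2, against 17.2% and 19.7% of all genes. Where overlap of a single gene is stated, it refers to CPM, and fewer of the higher genes stay apart under TMM scaling. Removing that trend took the median of the 31 genes to 0.030 and the number above 0 to 18. It left 0 of them called, where 1.98% of all genes were (0.744% higher, 1.23% lower). Scaling by library size alone, which moved the median of all genes from 0.013 to 0.15, gave a median of 0.38 and 5 calls, all higher (Psmb7, Psmc2, Psmc5, Psmc6 and Psmd1), where 7.39% of all genes were called (5.06% higher, 2.32% lower).

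In the alpha ring, 0 of 7 genes passed (2 at an unadjusted p under 0.05, against 20.8% of all genes tested). All 7 log2 fold changes were above 0, against 51.2% of those of all genes, with a median of 0.34. Counts of Psma6, which had the highest log2 fold change of the 31, were 18, 16 and 27 for Sirpa-WT against 39 and 28 for Sirpa-KO replicates 2 and 3. In CPM that was 43.7, 46.5 and 78.1 against 115 and 76.2, so the groups overlapped through Sirpa-WT replicate 3. Its log2 fold change was 0.65 ± 0.27 (SE, edgeR adjusted p = 0.136). By library left out it ran from 0.31 without Sirpa-KO replicate 2 to 0.96 without Sirpa-WT replicate 3. Without Sirpa-WT replicate 3 it was called (edgeR adjusted p = 0.0350), as were 351 of all 5378 genes tested in that fit (99 higher, 252 lower). No other setting called it. Psma2, whose product forms part of the gate-bearing ring, stood at 109, 128 and 142 CPM against 171 and 193, with no overlap, at 0.42 ± 0.20. Psma7 had the lowest log2 fold change of the ring, with levels of 129, 192 and 174 CPM against 180 and 207 and a value of 0.13 ± 0.19 that turned to -0.065 with the trend removed. With all 6 libraries the median of the ring was 0.63, and Psma6, Psma2 and Psma7 stood at 1.11, 0.63 and 0.45.

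In the beta ring, Psmb1 fell, none rose and 6 of 7 did not pass, where 4.52% of all genes tested were called lower and 1.32% higher. The median log2 fold change of the ring was 0.023. Among the catalytic genes, Psmb7 stood at 134, 122 and 171 CPM for Sirpa-WT against 213 and 218 for Sirpa-KO replicates 2 and 3. The groups did not overlap, and the log2 fold change was 0.48 ± 0.19 (SE, edgeR adjusted p = 0.114). It was called without Sirpa-WT replicate 3 (0.63, edgeR adjusted p = 0.0380), as were 351 of all 5378 genes tested in that fit (99 higher, 252 lower). It was also called with library size alone (0.62, edgeR adjusted p = 0.0263), but in no other setting. By edgeR it stood at 0.43 without Sirpa-WT replicate 1 (adjusted p = 0.208), 0.38 without Sirpa-WT replicate 2 (adjusted p = 0.347) and 0.29 with the trend removed (adjusted p = 0.552). Psmb6 stood at 131, 192 and 156 CPM against 180 and 158, and Psmb5 at 36.4, 37.8 and 23.2 CPM against 35.4 and 29.9. Both overlapped between groups, at -0.031 ± 0.20 and -0.12 ± 0.40. Psmb5 rested on 8 to 15 counts in each shallow library. Scaling by library size alone turned Psmb6 to 0.11 and Psmb5 to 0.012. With all 6 libraries the median of the ring was 0.38, and Psmb7, Psmb6 and Psmb5 stood at 0.71, 0.28 and 0.54.

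In the ATPase ring, which pulls substrates into the core, 0 of 6 genes passed (3 at an unadjusted p under 0.05, against 20.8% of all genes tested). The median log2 fold change was 0.29. Psmc2 had the highest log2 fold change, with levels of 99.6, 69.8 and 66.6 CPM for Sirpa-WT against 133 and 125 for Sirpa-KO replicates 2 and 3, without overlap (0.57 ± 0.24, SE, edgeR adjusted p = 0.133). Psmc3 had the lowest log2 fold change, with levels of 87.4, 93.1 and 104 CPM against 97.4 and 114 (0.046 ± 0.24), and it stood at -0.17 with the trend removed. With all 6 libraries the median of the ring was 0.70, and Psmc2 and Psmc3 stood at 1.14 and 0.97. Psmc3 shares 8.25% of its exon bases with Slc39a13 on the opposite strand, and counting did not use strand.

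Of the other base subunits, which hold the ubiquitin receptors Psmd4 and Psmd2, 0 of 3 passed (1 at an unadjusted p under 0.05, against 20.8% of all genes tested). Psmd1, a scaffold of the base, stood at 94.7, 119 and 110 CPM for Sirpa-WT against 162 and 177 for Sirpa-KO replicates 2 and 3, without overlap, at 0.54 ± 0.21 (SE, edgeR adjusted p = 0.0987). Psmd4 stood at 104, 81.4 and 104 CPM against 103 and 150, with overlap, at 0.27 ± 0.23. The median of the 3 was 0.27, and with all 6 libraries it was 0.84, with Psmd1 at 1.06 and Psmd4 at 0.48. Exons of Psmd1 overlap those of 2 other genes over 12.2% of their bases.

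In the lid, which carries the deubiquitinase subunit Psmd14, 0 of 8 genes passed (1 at an unadjusted p under 0.05, against 20.8% of all genes tested). The median log2 fold change was 0.19. Psmd3, a structural lid subunit gene (ENSMUSG00000017221, GRCm38 chromosome 11, 98682554 to 98695979, plus strand), stood at 323, 326 and 339 CPM for Sirpa-WT against 236 and 280 for Sirpa-KO replicates 2 and 3. All Sirpa-KO libraries were below all Sirpa-WT libraries, and the deep library stood at 144 CPM. Its log2 fold change of -0.47 ± 0.16 (SE) missed the threshold (edgeR adjusted p = 0.0586). By edgeR it passed with the replicate number as a block (-0.48, adjusted p = 0.0447) and when protein-coding genes alone were tested (-0.49, adjusted p = 0.0484). It also passed among genes with little pseudogene sequence (-0.49, adjusted p = 0.0328). No other setting called it. It stood at -0.33 with library size alone (edgeR adjusted p = 0.202), -0.47 with DESeq2 (adjusted p = 0.134) and -0.22 with the trend removed (edgeR adjusted p = 0.612). The highest log2 fold change of the lid was that of Psmd7, with levels of 119, 116 and 148 CPM against 159 and 177, without overlap in CPM (0.28 ± 0.20). Psmd8, Psmd11 and Psmd13 stood at 0.25 ± 0.17, 0.23 ± 0.27 and -0.11 ± 0.29, and Psmd14 at 0.16. Psmd8 stood at 0.063 without Sirpa-KO replicate 2 and at 0.029 with the trend removed, where Psmd7 stood at 0.083. With all 6 libraries the median of the lid was 0.60, with Psmd3 at -0.73, Psmd7 at 0.59, Psmd8 at 0.67, Psmd11 at 0.62, Psmd13 at 0.63 and Psmd14 at 1.07.

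**Figure D3:**
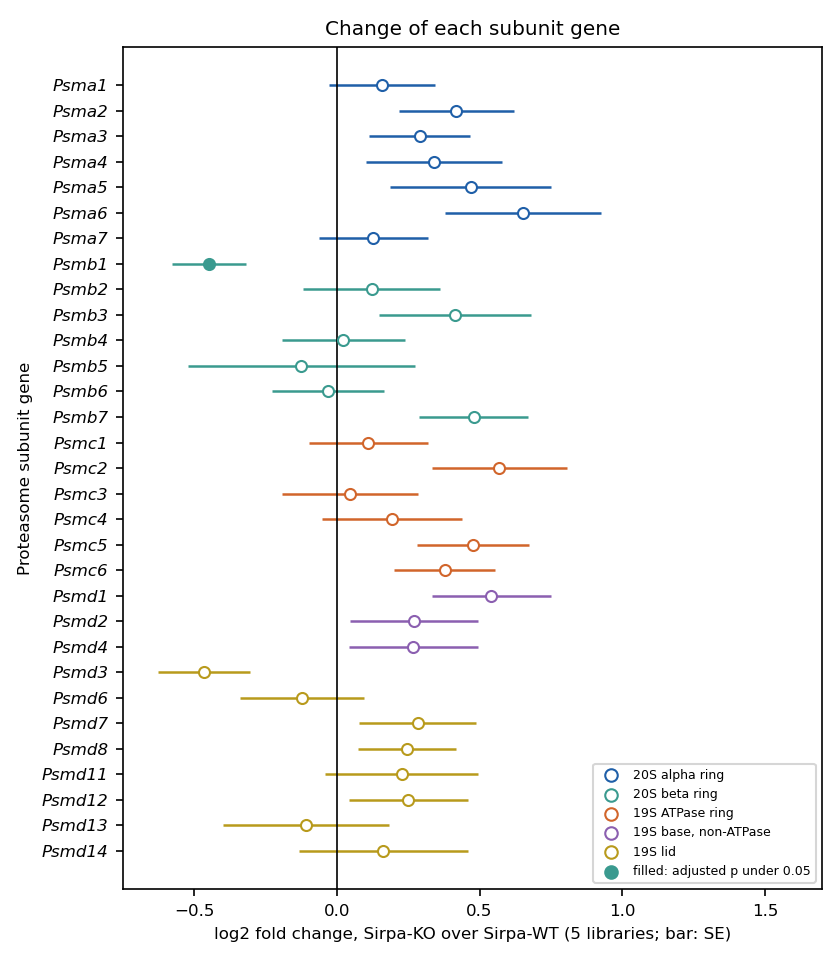
Log2 fold change of Sirpa-KO replicates 2 and 3 over Sirpa-WT for each subunit gene (5 libraries; bars, SE), coloured by subcomplex and filled where the adjusted p is under 0.05. Of the 31 points Psmb1 alone is filled, at -0.45, with Psmd3 beside it at -0.47, while 25 of the 31 points lie to the right of 0.

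Psmb1 and Psmd3 also stood apart in the comparison of the deep library with the shallow ones. For 28 of the 31 genes the deep library had a higher CPM than every shallow library; Psma3, at 254 CPM, lay within the shallow range, and Psmb1 and Psmd3 lay below every shallow library. The log2 ratio of CPM, deep library over shallow mean (1 CPM added to each), had a median of 1.10 over the 31 genes, against 0.93 over 3414 tested protein-coding genes with under 5% of their 25-base words in pseudogenes. Psmb1 was at -0.998 and Psmd3 at -1.05, the other genes from 0.25 (Psma3) and 0.28 (Psmd6) to 2.06 (Psmc3). A ratio below 0 was found for 2 of the 31 genes (6.45%) and for 47.1% of all 5510 genes tested, whose median ratio was 0.38. Among genes with little pseudogene sequence it was found for 2 of 19 subunit genes (10.5%; median 1.05) and for 32.2% of the 3414. No test was made of these shares.

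By subcomplex, the median ratio was 1.04 in the alpha ring, 1.03 in the beta ring, 1.44 in the ATPase ring, 1.63 in the other base subunits and 1.16 in the lid. The 2 genes with a ratio below 0 are thus the pair with the lowest log2 fold changes between the shallow groups. The trend removed in the alternative fit is a smooth curve, over all genes tested, of each library's values on this ratio. The deep library is itself Sirpa-KO and the shallow mean includes the Sirpa-WT libraries, so a genotype difference also enters this ratio. Removing the trend can therefore remove a genotype difference too, and that fit cannot tell them apart. The part of the ratio in the fold changes of Psmb1 and Psmd3 was not tested.

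**Figure D4:**
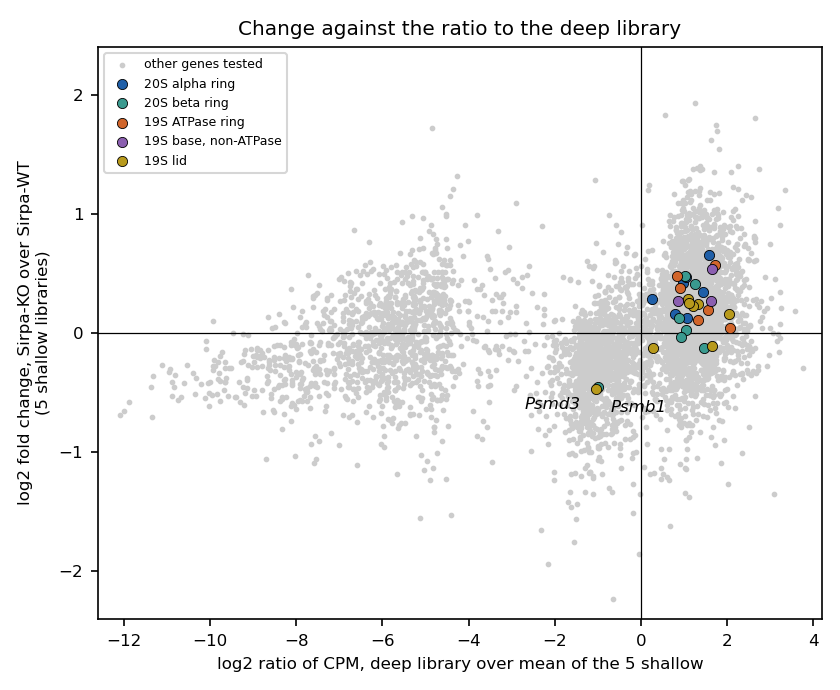
Log2 fold change between the shallow groups against the log2 ratio of CPM, deep library over shallow mean, for the genes tested (grey) and the 31 subunit genes (coloured by subcomplex). Psmb1 and Psmd3 lie together, at ratios of -0.998 and -1.05, and the other 29 genes lie at ratios above 0.

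Many subunit genes have processed pseudogenes, intronless copies whose reads can be hard to separate from those of the gene. Over the 31 genes a median of 2.20% of 25-base words occurred in annotated pseudogenes, against 0.571% over the protein-coding genes tested; 19 genes were under 5%, Psmb1 (4.34%) and Psmd3 (1.24%) among them, and 7 were at 20% or more. The 13 pseudogenes with at least 20% of their words in a subunit gene summed to 748 to 932 counts in Sirpa-WT, 737 and 772 in Sirpa-KO replicates 2 and 3, and 507 in the deep library, which is 2100 to 2275 CPM in the shallow libraries and 17.0 CPM in the deep one. Counts of Gm5422, with 47.4% of its words in Psmd2, were 447, 327 and 331 for Sirpa-WT, 318 and 317 for Sirpa-KO replicates 2 and 3, and 22 for the deep library. Psmd2 itself had 27, 41 and 41, then 42 and 50, and 10455 counts in the same order. In the shallow libraries the pseudogene thus had more counts than the gene, and in the deep library fewer. Gm14227, with 30.7% of its words in Psmb3, fell (-0.56, edgeR adjusted p = 0.0177), from 294, 340 and 339 CPM to 260 and 218, while Psmb3 stood at 0.41 and did not pass. Gm13835, with 100% of its words in Psma3, had 281, 231 and 251 counts for Sirpa-WT, 240 and 262 for Sirpa-KO replicates 2 and 3, and 280 for the deep library. Psma3 had 66, 74 and 66, then 89 and 87, and 7595 in that order.

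Inducible and tissue-restricted core subunit genes had few counts in the shallow libraries. The immunoproteasome genes Psmb8 and Psmb9 had at most 2 counts in any shallow library and 10 and 36 in the deep one, and Psmb10 had 3 to 6 and 938. Per length, Psmb10 was at 7.13, 11.1 and 13.3 TPM for Sirpa-WT and 62.8 TPM in the deep library. That is near Psmd11, the lowest of the 31 subunit genes, at 13.2, 12.7 and 13.2 TPM and 70.8 TPM. Of the 5 genes of the immunoproteasome and its PA28 activator, 4 were under the count filter. Counts of Psme2, a PA28 subunit gene, were 8, 8 and 6 for Sirpa-WT against 14 and 12 for Sirpa-KO replicates 2 and 3, and it did not pass (0.75 ± 0.46, SE, edgeR adjusted p = 0.351). The testis subunit gene Psma8 was at 0 in every library, and the thymus subunit gene Psmb11 had 4 counts, all in Sirpa-KO replicate 3.

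Among the genes that assemble or assist the proteasome, Usp14 rose. It encodes a deubiquitinase that binds the cap and trims ubiquitin chains. Its counts were 29, 21 and 32 for Sirpa-WT against 37 and 63 for Sirpa-KO replicates 2 and 3. That is 74.7 ± 16.2 CPM (SD, n = 3) against a mean of 140, or 0.80 ± 0.23 on the log2 scale (SE, edgeR adjusted p = 0.0173). The groups did not overlap. By edgeR the call was lost without Sirpa-KO replicate 3 (0.42, adjusted p = 0.611), Sirpa-WT replicate 2 (0.68, adjusted p = 0.118) or Sirpa-WT replicate 1 (0.76, adjusted p = 0.0554). It was also lost with the trend removed (0.59, adjusted p = 0.206), the replicate block (0.74, adjusted p = 0.0695), no filter (0.76, adjusted p = 0.0663) and all 6 libraries (1.05, adjusted p = 0.574). In the shallow libraries DESeq2 gave Usp14 no adjusted p-value. In that list of activators, associated subunits and an inhibitor, 1 of 10 rose, none fell, 8 did not pass and 1 was not tested. Of all genes tested, 1.32% were called higher and 4.52% lower. Sem1, a small lid-associated subunit gene and the most abundant of the list, stood at 0.30. Of the 9 listed assembly chaperones, 4 were tested and 0 passed (0 at an unadjusted p under 0.05, against 20.8% of all genes tested). The core maturation factor gene Pomp was the most abundant, at 28, 32 and 39 counts against 42 and 47 (0.36 ± 0.23).

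In the list of genes for transcriptional control, Nfyc fell, none rose, 4 did not pass and 3 of 8 were under the count filter. Of all genes tested, 4.52% were called lower and 1.32% higher. Nfyc, which encodes a subunit of NF-Y, averaged 327 ± 27.6 CPM over Sirpa-WT (SD, n = 3) and 227 over Sirpa-KO replicates 2 and 3 (-0.65 ± 0.17, SE, edgeR adjusted p = 0.00392). Its 138, 102 and 121 counts stood against 84 and 76, without overlap in CPM, and the deep library was at 54.7 CPM, a log2 ratio of -2.37. Of its 25-base words, 28.005% occur in annotated pseudogenes, so its counts are uncertain, and it was not among the genes with little pseudogene sequence. The call was lost with the trend removed (-0.46, adjusted p = 0.124), without Sirpa-KO replicate 3 (-0.53, adjusted p = 0.214) and with all 6 libraries (-1.09, adjusted p = 0.574). Nfe2l1 (-0.43) and Nfe2l2 (-0.078) did not pass. The 10 subunit genes with a CCAAT box had a median log2 fold change of 0.28 and the 15 without of 0.25, with no test made. The 4 with the antioxidant response element core ranged from -0.12 (Psmb5) to 0.38 (Psmc6), with a median of 0.11 against 0.27 for the 21 without.

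Of the 13 ubiquitin and shuttle-factor genes, 9 were tested in the shallow libraries and 0 passed (1 at an unadjusted p under 0.05, against 20.8% of all genes tested). The polyubiquitin gene Ubb, the most abundant of them per length, had counts of 183, 152 and 154 for Sirpa-WT against 158 and 194 for Sirpa-KO replicates 2 and 3, with a log2 fold change of 0.044 that turned to -0.13 with 6 libraries. The median over the 9 tested genes was 0.044. With all 6 libraries none of the genes in these lists passed edgeR's test.

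**Figure D5:**
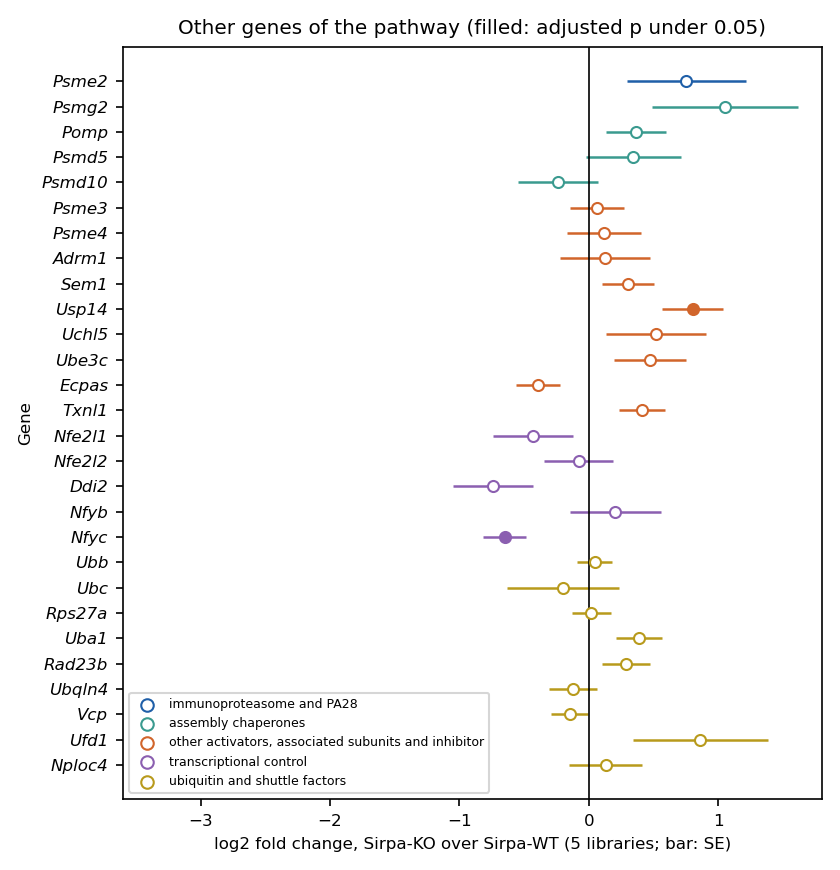
Log2 fold change of Sirpa-KO replicates 2 and 3 over Sirpa-WT (5 libraries; bars, SE) for the tested genes of 5 other lists of the pathway, filled where the adjusted p is under 0.05. Usp14 is filled at 0.80 and Nfyc at -0.65, and the other genes are open.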

How the data were processed

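mRNA of 3 Sirpa-WT and 3 Sirpa-KO libraries was counted per gene. The values are raw counts that the authors made with featureCounts 1.5.1 and no strand option, from Ensembl release 75 exons on GRCm38, per the file headers. The submitters' processing notes also list STAR 2.6.0 and Subread. Gene symbols were matched by identifier to GENCODE mouse release 21.

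The tests here used edgeR 4.0.16 in R 4.3.3, quasi-likelihood with the robust option, after filterByExpr (minimum count 10) and TMM. They were 2-sided, covered the whole table and were adjusted by Benjamini-Hochberg, once with 6 libraries and once with the 5 shallow ones. The code was tested on simulated data. Alternatives were other scalings, filters and gene sets, DESeq2 1.42.0, limma 3.58.1 (voom), the replicate block and each library left out. Genes to which DESeq2 gave no adjusted p-value were counted as not called. Removing the trend meant fitting a lowess curve (span 0.3) of each library's log2 CPM (prior count 2), relative to the gene's mean, on the ratio to the deep library, and using it as an offset.

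The members, gene lists and alternatives were chosen with earlier results of these data known. Values are given for the genes called, the catalytic genes, the highest and lowest log2 fold change of each subcomplex, the 3 highest and 3 lowest levels per length in Sirpa-WT, and the called or most abundant genes of the other lists. Other genes named with values were added after their values were seen. One listed gene, Paaf1, was not matched to a symbol.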

Additional observations from a re-analysis of the deposited data

How the results depend on the processing

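The removal of the trend and the restriction to genes with little pseudogene sequence were chosen after seeing the data. Depth limits the shallow libraries to 8 to 223 counts per subunit gene.

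With 5 libraries, 1 subunit gene was called (Psmb1, lower). The count was 5 with library size alone, 0 with DESeq2 and 0 with the trend removed. DESeq2 gave some of the 31 genes no adjusted p-value. The count was 2 under the replicate block, 2 among protein-coding genes and 2 among those with little pseudogene sequence (19 of the 31 genes tested), the second gene being Psmd3 in each pair. Leaving out each library gave 0 to 3, the 3 when Sirpa-WT replicate 3 was omitted and 0 when Sirpa-WT replicate 2 or either shallow Sirpa-KO library was. With 1 Sirpa-KO library left, it is assumed to vary like the Sirpa-WT libraries. The median of 0.25 became 0.38 with library size alone and 0.030 with the trend removed, and 0.19 to 0.26 with each library left out. All 322 genes called became 132 with DESeq2, 198 in protein-coding genes and 164 in those with little pseudogene sequence, where fewer genes were tested, 109 with the trend removed and, as single libraries were omitted, 125 to 351 (214 without Sirpa-WT replicate 2, 125 and 127 without Sirpa-KO replicates 2 and 3). The replicate block gave 316 calls. Deviations from group means correlated at 0.0044 and -0.013 within the 2 shared numbers. With 2 Sirpa-KO libraries in this fit, their deviations mirror each other, so these values cannot tell whether the numbers pair the libraries.

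With 6 libraries, 0 subunit genes were called (edgeR; 2 at an unadjusted p under 0.05), and 0 to 1 with each library left out. Their median of 0.62 moved to 0.42 (RLE), 0.89 (library size), 0.37 (no filter), 0.33 (1 CPM or more in 3 libraries), 0.45 (DESeq2), 0.33 (protein-coding genes) and 0.32 (little pseudogene sequence), and ran from 0.25 to 0.72 as single libraries were omitted. Over all genes edgeR called 0 (344 at an unadjusted p under 0.05), DESeq2 1 and limma voom 1283 (17 higher, 1266 lower), with 0 to 322 by edgeR as single libraries were omitted (322 without Sirpa-KO replicate 1). Apart from fewer genes or libraries entering a fit, the cause was not tested.

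Of single genes in the 5-library fit, signs turned with library size alone for Psmb5 (0.012), Psmb6 (0.11) and Psmd13 (0.029), with 6 libraries for Psmb5 (0.54), Psmb6 (0.28), Psmd13 (0.63) and Ubb (-0.13), with the replicate block for Psma7 (-0.036) and Psmc3 (-0.019), and with the trend removed for Psma7 (-0.065) and Psmc3 (-0.17). With single libraries left out, Psma7 ran from -0.036 to 0.24, Psmb6 from -0.17 to 0.11, Psmc3 from -0.090 to 0.13, Psmd4 from -0.043 to 0.48, Psmd11 from -0.053 to 0.45, Psmd13 from -0.19 to 0.0073 and Ubb from -0.062 to 0.11.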
